A study of Mus musculus with 15 samples.

Results

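The genes described here are 10 members of the platelet-derived growth factor (PDGF) axis and of the usual fibroblast marker panel: the receptors Pdgfra and Pdgfrb, the ligands Pdgfa, Pdgfb and Pdgfc, and the markers Fap, Acta2, Dcn, Lum and S100a4. They were taken by symbol from the deposited expression table, which holds 17271 genes, and all 10 symbols were found. The samples are 15 mammary tumours grown in mice, all labelled p53-null (genotype p53-/- in the table) and of the Balbc strain, so every group compared shares the loss of p53. The samples fall under 4 model names: 2208L with 8 samples, 2151R with 4, 2225L with 2 and T11 with 1. The 8 samples of 2208L are titled PBS (replicates 2 to 5), 3day nt (replicates 6 to 8) or ROSEN (replicate 1). Replicates 3 and 4 of 2151R are titled NT2 and NT, and replicates 1 and 2 carry other codes. In 2225L replicate 1 is titled T-Vivo and replicate 2 ROSEN, so both 2225L and 2208L hold 1 sample titled ROSEN. The age of the mice, the treatments and the meaning of these terms are not given in the sources used here. Tumour and host cells are both murine, so a transcript cannot be assigned to either in these bulk samples. Titles of the PBS samples start with a DH code and those of the 3day nt samples with a KM code, each different, without saying what it marks. Nothing states that samples of a model came from separate animals, so the spread between them may be partly technical.

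PDGF ligands are dimers that bind receptor tyrosine kinases and drive the growth and migration of mesenchymal cells. PDGF-A acts through the alpha receptor, PDGF-B through both receptors, and PDGF-C must be cleaved before it can bind the alpha receptor. In tumours the alpha receptor is known from fibroblasts and the beta receptor from pericytes and fibroblasts, while PDGF-B is made by endothelial cells among others. Fap encodes a surface protease of activated fibroblasts, and Acta2 encodes smooth muscle actin of myofibroblasts, pericytes and mammary myoepithelial cells. Dcn and Lum encode decorin and lumican, small leucine-rich proteoglycans that bind collagen. S100a4 encodes a calcium-binding protein used as a fibroblast marker, which leukocytes and mesenchymal tumour cells are also known to make.

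All values below are log2 expression values that the authors centred gene by gene, so 0 is an unstated reference level of that gene. A difference of 1 between samples is a 2-fold difference. Values of different genes cannot be ranked as levels, and with no transcript length or counts in the table neither depth nor counting error is known. Per sample, the median over all genes lay from -0.29 to 0.10. A difference is called where the p-value of limma, adjusted by Benjamini-Hochberg over all 17271 genes, was under 0.05. The comparisons of 2151R and of 2225L with 2208L share the 2208L samples. The 2151R libraries carry numbers in a range of their own, and an effect of that range and of the model cannot be told apart.

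The sequences before the start sites of Pdgfc, Acta2 and S100a4 are shown because Pdgfc and Acta2 were lower in 2151R than in 2208L while S100a4 had the largest difference of the 10 genes between them. The RefSeq promoter table matched 5 of the 10 genes. Each is the 250 bases upstream of a RefSeq start on GRCm38.p6, 5′ to 3′ on the gene's strand, with motif matches in capitals.

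Pdgfc, chr3:81036166-81036415, plus strand: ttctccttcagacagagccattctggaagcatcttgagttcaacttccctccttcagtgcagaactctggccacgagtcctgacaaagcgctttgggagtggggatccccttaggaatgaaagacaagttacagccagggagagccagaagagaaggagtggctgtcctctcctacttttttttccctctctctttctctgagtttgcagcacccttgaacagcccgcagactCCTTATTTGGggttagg
Acta2, chr19:34255374-34255623, minus strand: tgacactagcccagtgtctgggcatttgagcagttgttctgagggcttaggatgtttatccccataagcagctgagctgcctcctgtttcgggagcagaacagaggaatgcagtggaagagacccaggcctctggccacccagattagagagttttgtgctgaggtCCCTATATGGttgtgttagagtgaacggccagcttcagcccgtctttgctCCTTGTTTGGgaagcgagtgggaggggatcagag
S100a4, chr3:90603520-90603769, plus strand: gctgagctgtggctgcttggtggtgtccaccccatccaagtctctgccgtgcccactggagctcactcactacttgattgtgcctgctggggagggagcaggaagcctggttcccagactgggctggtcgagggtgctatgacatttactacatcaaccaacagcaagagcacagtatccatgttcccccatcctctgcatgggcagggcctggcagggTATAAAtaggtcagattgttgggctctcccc

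The CArG box is the motif of serum response factor, which is known to drive contractile genes. Pdgfc held 1 full CArG box in this window, as did 1.47% of 32851 RefSeq start windows of the same length. Acta2 held 2 CArG boxes with a single G or C in the A/T core, CCCTATATGG at 84 to 75 and CCTTGTTTGG at 34 to 25 bases before the start, a form found in 7.24% of windows. S100a4 held TATAAA at 31 to 26 bases before its start (12.4% of windows on either strand). Neither Pdgfra nor either of the 2 Pdgfa windows held a CArG box or TATAAA. The Pdgfa windows had 19 and 28 CpG dinucleotides, against 4 for Pdgfra and a median of 6 over all windows, and each held GGGCGG or its reverse complement (32.7% of windows). By the GENCODE positions below, both Pdgfa windows lie inside the span of Pdgfa, and most of the Acta2 window lies inside that of Acta2. Those RefSeq starts are therefore not the outermost annotated ones. The bases after the RefSeq start of Pdgfra were not found in a GENCODE transcript of the gene. The motifs are descriptions of these letters only.

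In GENCODE vM21 on GRCm38 (mm10, the build named in the submitters' notes) all 10 genes are protein-coding. Pdgfra lies at chr5:75152292-75198215 and Pdgfa at chr5:138976014-138997370. Pdgfrb lies at chr18:61045150-61085061, Pdgfb at chr15:79995874-80014977 and Fap at chr2:62500943-62574075. Dcn (chr10:97479609-97518143) and Lum (chr10:97565128-97572703) are direct neighbours. The other 3 are Pdgfc (chr3:81036416-81214040), S100a4 (chr3:90603771-90606045) and Acta2 (chr19:34241090-34255590).

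The models differed in epithelial transcripts, which is the setting for the comparisons of the 10 genes. All 8 epithelial genes examined were lower in 2151R than in 2208L (median difference -6.63), among them Epcam (-6.58), the adhesion molecule of epithelial cells, and Cldn7 (-8.34), a tight junction claudin. None of the 8 was called between 2225L and 2208L (median -0.012). The mean of the list was -9.57 in T11, from -6.01 to -4.88 in 2151R, and from 0.65 to 1.304 in 2208L. Vim, the mesenchymal intermediate filament, was 2.27 ± 0.040 (SD, n = 4) in 2151R, 2.28 in T11, -0.82 ± 0.31 (SD, n = 8) in 2208L and, for 2225L, -0.35 ± 0.30 (SD, n = 2).

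Of the 10 genes, 7 were called between 2151R and 2208L, 4 higher in 2151R (Pdgfra, Pdgfa, Dcn and S100a4) and 3 lower (Pdgfb, Pdgfc and Acta2). Over all genes 48.8% were called in this comparison, 26.1% higher and 22.7% lower. The groups did not overlap at 6 of the 10, against 38.8% of all genes, and the median difference of the 10 was 0.60, against 0.10 over all genes. With a background this high, the count of 7 is not read as a property of the group, and the single genes carry the description.

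**Figure D1:**
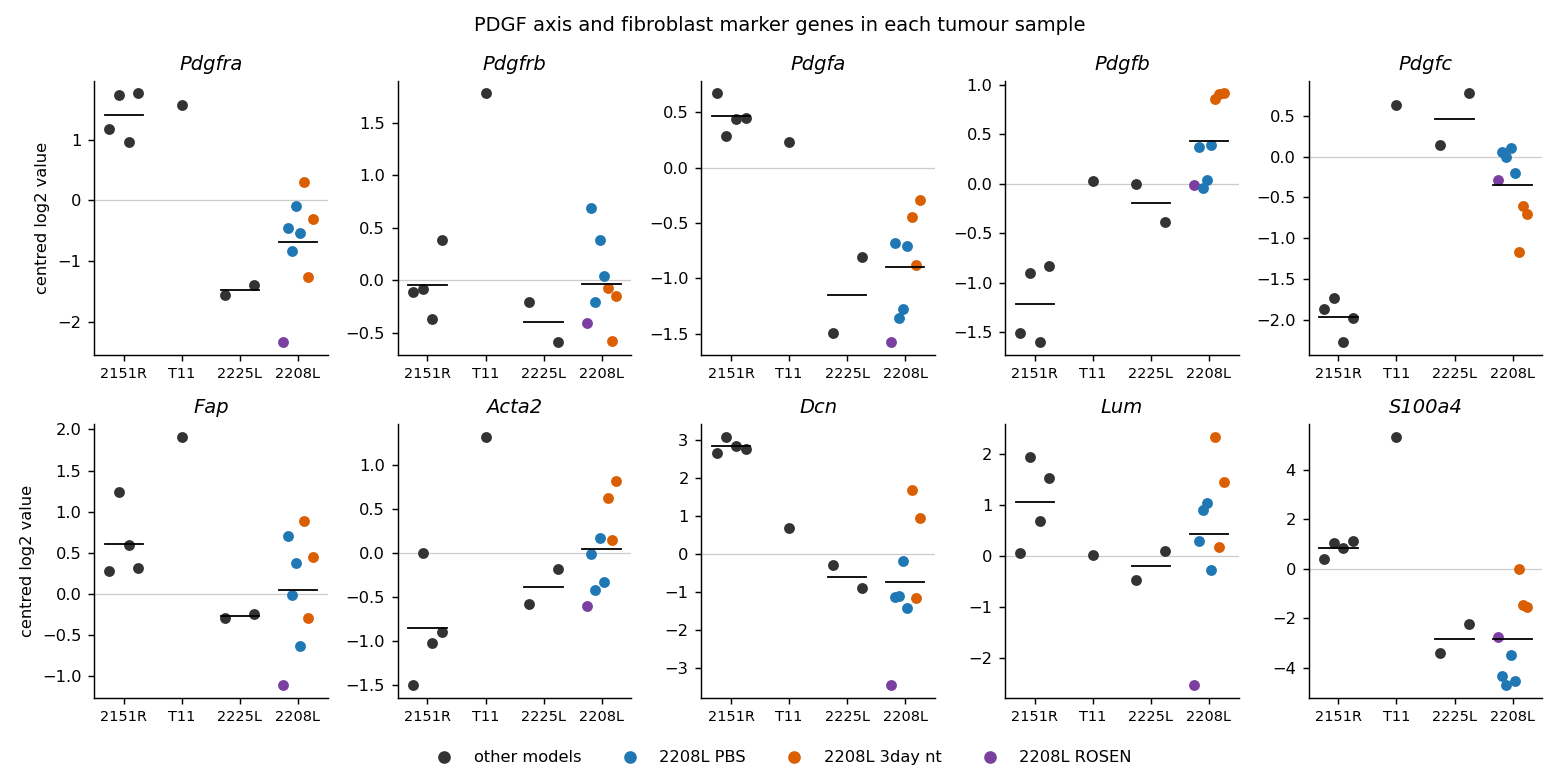
Centred log2 value (vertical axis) of each of the 10 genes in every sample, by model (horizontal axis). Points are samples, colours mark the titles within 2208L, and lines are means of groups with more than 1 sample. The 4 points of 2151R lie above all 8 of 2208L for Pdgfra, Pdgfa, Dcn and S100a4 and below them for Pdgfb and Pdgfc.

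The receptors did not follow the same pattern. Pdgfra was 1.18, 1.74, 0.96 and 1.77 in replicates 1 to 4 of 2151R and 1.58 in T11. In 2225L it was -1.56 and -1.39, and in 2208L it ran from -2.34 to 0.31 with a median of -0.50. Every 2151R sample was above every 2208L and 2225L sample. Pdgfra was higher in 2151R by 2.10 (SE 0.39, limma adjusted p 0.000648), which is 4.29-fold. The difference stayed between 1.82 and 2.48 in all 24 alternatives, and the call held in each. Among these, a filter at 1 log2 unit and an unadjusted exact permutation test reuse the main difference. They could not lose this call. Between 2225L and 2151R the difference was -2.89 (SE 0.56, limma adjusted p 0.000903). Between 2225L and 2208L it was -0.79 (95% interval -1.89 to 0.31) and not called. That difference was called without replicate 1 of 2208L, its sample titled ROSEN, at -1.02, and against the PBS samples alone at -0.9996. Replicate 2 of 2225L, also titled ROSEN, stayed in both fits.

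Pdgfrb showed no such separation. It was -0.11, -0.08, -0.37 and 0.38 in 2151R, -0.21 and -0.59 in 2225L, and from -0.57 to 0.69 with a median of -0.11 in 2208L. These groups overlapped throughout. Between 2151R and 2208L the difference was -0.010, with a 95% interval of -0.50 to 0.48 that leaves out the size seen at Pdgfra. T11 had the highest Pdgfrb value of all 15 samples, 1.78, which is 1.81 above the mean of 2208L and 1.82 above that of 2151R.

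The ligands split as well. Pdgfa, the ligand of the alpha receptor, was 0.67, 0.29, 0.44 and 0.45 in 2151R and 0.23 in T11. It was -1.49 and -0.81 in 2225L and from -1.57 to -0.29 in 2208L (median -0.79). The samples of 2151R and T11 all lay above 0 and all other samples below it. Pdgfa was higher in 2151R than in 2208L by 1.36 (SE 0.24, limma adjusted p 0.000413), and the difference between 2225L and 2151R was -1.61 (SE 0.34, adjusted p 0.0018). Both calls held in every alternative.

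Pdgfb went the other way. It was -1.50, -0.90, -1.60 and -0.83 in 2151R, 0.03 in T11, 0.00 and -0.39 in 2225L, and from -0.05 to 0.91 in 2208L (median 0.38). The 2151R samples were the lowest 4 of the 15. Set against 2208L, 2151R differed by -1.64 (SE 0.24, limma adjusted p 9.24e-05), called in every alternative. The difference between 2225L and 2151R was 1.01 (adjusted p 0.026), and it was no longer called without replicate 1 or 3 of 2151R or without replicate 1 of 2225L, at 0.92, 0.88 and 0.82.

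Pdgfc was low in 2151R as well. It was -1.86, -1.73, -2.27 and -1.98 in 2151R, which again were the 4 lowest values of the 15. It was 0.63 in T11, 0.14 and 0.77 in 2225L, and from -1.17 to 0.11 in 2208L (median -0.24). Against 2208L the difference of 2151R was -1.61 (SE 0.24, limma adjusted p 0.000101), and between 2225L and 2151R it was 2.42 (SE 0.34, adjusted p 7.38e-05). Pdgfc was the sole gene of the 10 whose samples did not overlap between 2225L and 2208L, where 31.7% of all genes did not. The difference there was 0.81 (95% interval 0.14 to 1.48, adjusted p 0.063) and not called by limma. T11 and 2151R, the models with low epithelial values, were far apart for Pdgfc, with T11 2.59 above the mean of 2151R.

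**Figure D2:**
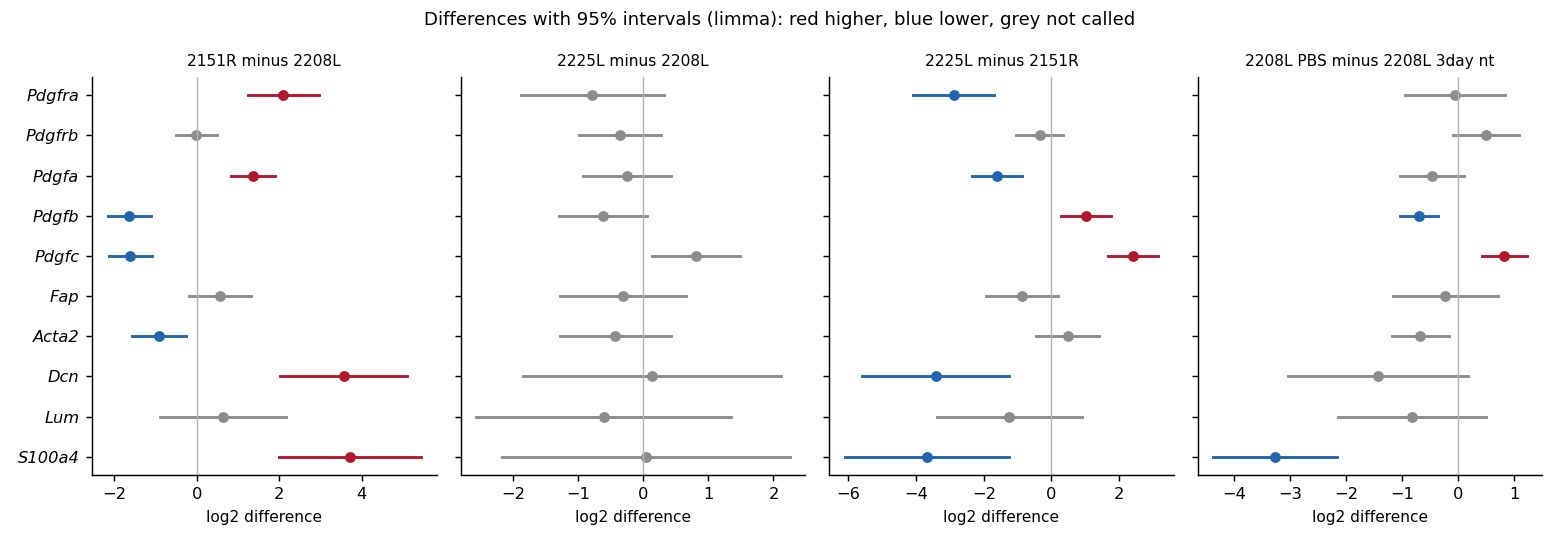
Log2 difference (horizontal axis) with its 95% interval for each gene in 4 comparisons from limma; intervals are not adjusted for the number of genes. Pdgfra, Pdgfa, Dcn and S100a4 are higher in 2151R than in 2208L, Pdgfb, Pdgfc and Acta2 are lower, and no gene is called between 2225L and 2208L.

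Differences between a pair of genes within a sample do not change when 1 constant is added to all log2 values of a sample. Values of 4 such pairs are given as a description with no test, since they were chosen after the values were seen, each with a gene already found higher in 2151R set against one that was not. Pdgfra minus Pdgfrb was 1.29 to 1.82 in 2151R and -1.93 to 0.38 in 2208L, a difference of 2.11. Pdgfa minus Pdgfb was 1.18 to 2.17 against -1.78 to -1.04, a difference of 2.999, and Pdgfa minus Pdgfc differed by 2.97. Dcn minus Lum differed by 2.92, with 1.14 to 2.59 in 2151R and -1.99 to -0.50 in 2208L. The choice of these genes fixes the direction of each difference, so none is support for the calls above. In T11 the 4 values were -0.19, 0.21, -0.40 and 0.65, below every 2151R sample for each pair.

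**Figure D3:**
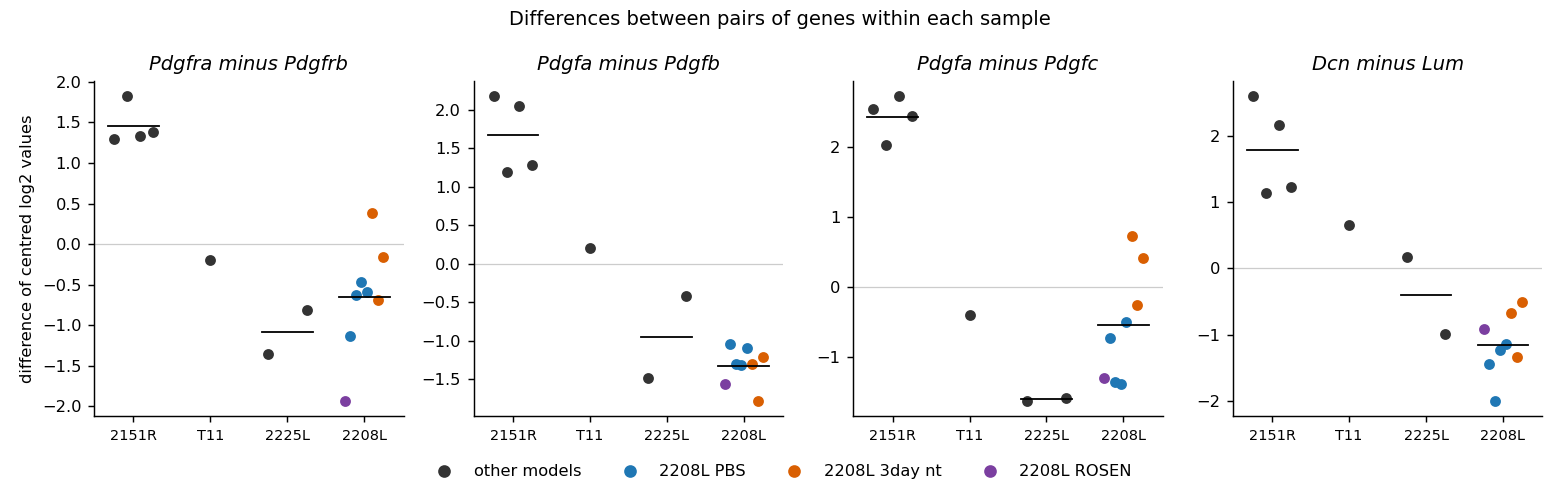
Difference of the centred log2 values of 2 genes in the same sample (vertical axis), by model, with points as samples and lines as means. All 4 samples of 2151R lie above all 8 of 2208L in each panel, and T11 lies below 2151R.

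Other genes that act on PDGF ligands were examined as a list of 8. Against 2208L, 4 were higher in 2151R and 3 lower (26.1% and 22.7% of all genes), with a median difference of 0.62. Plat, the tissue plasminogen activator that cleaves PDGF-C, was higher by 2.09, and Plau, the urokinase, by 1.11. Nrp1, a co-receptor, was higher by 1.82 and Furin, a proprotein convertase, by 0.72. St14, the epithelial protease matriptase, was lower at a difference of -6.55, and the ligand Pdgfd and the receptor-like Pdgfrl were lower at -1.36 and -1.14. Pdgfd was also lower in 2225L than in 2208L (-1.82) and higher in 2208L PBS than in 3day nt (1.15). Sparc, a matrix protein that binds PDGF, was not called (0.52).

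Of 19 genes of receptor signalling, 2151R had 5 higher and 5 lower than 2208L (26.1% and 22.7% of all genes). Their median difference was 0.082. Pik3ca, a catalytic PI3 kinase subunit, was higher by 1.61, and Pik3r1, its regulatory subunit, was lower at -1.81. The adaptor Grb2 differed by 0.22 and the kinase Akt1 by 0.23, and neither was called.

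Dcn was high in all samples of 2151R. It was 2.65, 3.08, 2.83 and 2.76 in 2151R, 0.67 in T11, -0.30 and -0.90 in 2225L, and from -3.46 to 1.67 in 2208L (median -1.12). Its range within 2151R was 0.43 and within 2208L it was 5.13. No sample of another model reached the 2151R values. Dcn was higher in 2151R than in 2208L by 3.56 (SE 0.71, limma adjusted p 0.0011), or 11.8-fold. The difference ran from 2.35 to 4.24 over the alternatives, all called. The difference of 2225L from 2151R was -3.43 (SE 1.01, limma adjusted p 0.013), a call lost without replicate 2 of 2225L (-3.13, adjusted p 0.090).

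Lum, next to Dcn on chromosome 10, did not separate the models. It was 0.06, 1.95, 0.67 and 1.53 in 2151R, 0.02 in T11, -0.47 and 0.08 in 2225L, and from -2.55 to 2.34 in 2208L (median 0.59). The highest and the lowest of all 15 values were both in 2208L. For 2151R against 2208L the difference was 0.64 (95% interval -0.88 to 2.16) and was not called in any alternative. Of 9 other measured small leucine-rich proteoglycans, 1 was called between these models, where 48.8% of all genes were: Prelp, higher in 2151R by 3.10. In 2225L 3 of the 9 were higher than in 2208L and none lower (15.6% and 17.3% of all genes). They were Prelp (4.18), Chad (4.36) and Epyc (4.29). Bgn, which encodes biglycan, differed by 0.00013 between 2151R and 2208L.

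Fap was 0.28, 1.24, 0.59 and 0.32 in 2151R, -0.30 and -0.24 in 2225L, and from -1.11 to 0.89 in 2208L (median 0.19). The groups overlapped, except that both 2225L samples lay below all of 2151R. The difference between 2151R and 2208L was 0.56 (95% interval -0.19 to 1.31, adjusted p 0.20). T11 was highest of the 15 samples, at 1.91.

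Acta2 was -1.51, 0.00, -1.02 and -0.90 in 2151R, 1.32 in T11, -0.58 and -0.18 in 2225L, and from -0.60 to 0.81 in 2208L (median 0.069). Replicate 2 of 2151R lay inside the range of 2208L and the other 3 below it. The difference was -0.91 (SE 0.31, limma adjusted p 0.025). It was no longer called when replicate 1, 3 or 4 of 2151R was left out (-0.69, -0.85 and -0.89), and without the 3 samples high in skeletal muscle genes (-0.63, adjusted p 0.13). Of 12 other contractile and activated fibroblast genes, 1 was higher and 2 were lower in 2151R (26.1% and 22.7% of all genes). The higher gene was Myh11, smooth muscle myosin (1.36), and the lower genes were Tagln, transgelin (-1.68), and Actg2, the enteric smooth muscle actin (-2.47).

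Acta2 has related copies, which may matter for how reads were assigned. Over 1134 coding bases it is 84.2% identical to Actg2, 82.8% to Actb and 82.5% to Actc1 in GENCODE vM21. Acta1 was not aligned, and the length of shared stretches was not examined. How reads shared by such copies were assigned is not given in the sources used here, so the Acta2 values are uncertain in this respect. The skeletal muscle list averaged 10.7 and 10.1 in replicates 6 and 8 of 2208L and 7.75 in the 2151R sample numbered 3. In 2208L replicates 8 and 6 had the highest Acta2 values, 0.81 and 0.63. The part of muscle RNA in these values was not tested.

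S100a4 spread widely. It was 0.41, 1.06, 0.83 and 1.14 in 2151R, 5.35 in T11, -3.40 and -2.24 in 2225L, and from -4.72 to 0.00 in 2208L (median -3.13). All 2151R samples were above all of 2208L and 2225L, and the next highest sample after T11 was 1.14. S100a4 was higher in 2151R than in 2208L by 3.72 (SE 0.79, limma adjusted p 0.0017), which is 13.2-fold. The difference was 1.87 against the 3day nt samples alone and 5.14 against the PBS samples alone, and called in every alternative. The T11 value was 8.20 above the mean of 2208L, with no test.

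S100a4 in 2225L depended on which 2208L samples it was set against. Over all 8 the difference was 0.035 and not called. Against the PBS samples alone 2225L was higher by 1.45 (limma adjusted p 0.019), and against the 3day nt samples alone the difference was -1.82 (adjusted p 0.035). These subsets were tried after the data were seen. The difference from 2151R was -3.68 (SE 1.12, adjusted p 0.016), no longer called after quantile normalization (-3.41) or without replicate 1 of 2225L (-3.10).

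Within 2208L the samples titled PBS and 3day nt were compared. Of the 10 genes, Pdgfb and S100a4 were lower and Pdgfc was higher in the PBS samples, 3 of 10, where 34.0% of all genes were called (17.4% higher and 16.5% lower). Those 3 were also the genes whose samples did not overlap, against 44.8% of all genes. S100a4 was -4.32, -4.72, -3.50 and -4.56 in the PBS samples and 0.00, -1.47 and -1.54 in the 3day nt samples, a difference of -3.27 (SE 0.46, limma adjusted p 0.0052). Pdgfb was 0.37, -0.05, 0.04 and 0.39 against 0.86, 0.91 and 0.91 (-0.70, limma adjusted p 0.013). Pdgfb was no longer called after quantile normalization (-0.63, adjusted p 0.065) or without replicate 8 (-0.70, adjusted p 0.058). Pdgfc was 0.06, 0.00, 0.11 and -0.21 against -1.17, -0.61 and -0.71 (0.82, adjusted p 0.013). Acta2 missed the threshold at -0.68 (adjusted p 0.051) and was called after either rescaling of the samples (-0.61 with samples centred on their medians and -0.62 after quantile normalization).

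Replicates 6 and 8, which hold muscle RNA, are 2 of the 3 samples titled 3day nt. With the muscle list mean as a covariate the differences were -3.12 for S100a4, -0.72 for Pdgfb and 0.66 for Pdgfc, and without replicates 6 and 8 they were -2.80, -0.72 and 0.60. None of the 3 was called in either fit (adjusted p from 0.100 to 0.224). Over all genes the first fit called 86 higher and 38 lower and the second 76 and 22. Library numbers of the PBS and 3day nt samples lie in separate ranges, and their titles carry different codes (DH and KM). Title, code and library range therefore cannot be told apart.

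Replicate 1 of 2208L held the lowest value of that model for 6 of the 10 genes. It is the 2208L sample titled ROSEN, and the genes were Pdgfra (-2.34), Pdgfa (-1.57), Fap (-1.11), Acta2 (-0.60), Dcn (-3.46) and Lum (-2.55). This sample also had the lowest means of the resident fibroblast list (-1.08), the contractile and activated fibroblast list (-1.26) and the endothelial list (-1.46). Its macrophage (-1.29), mesenchymal state (-1.22) and skeletal muscle (-3.77) means were the lowest of 2208L too, and its epithelial mean (1.304) was the highest. In replicate 6, 5 genes had their highest 2208L value: Pdgfra, Fap, Dcn, Lum and S100a4. The same sample had the highest resident fibroblast mean (1.10) and skeletal muscle mean (10.7). It was also highest in 2208L for the contractile and activated fibroblast (0.42), endothelial (0.028), macrophage (0.50) and T cell (0.85) lists. These extremes were thus not limited to fibroblast lists, while pericyte, neutrophil and adipocyte means were at neither extreme in either sample. Pdgfrb and Pdgfb were in neither group, while Pdgfc had its lowest 2208L value (-1.17) in replicate 6. The part of these cell types in the values was not tested. In bulk tissue, fewer cells of a type and less RNA per cell cannot be told apart.

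T11 has a single sample, so its values carry no test. It was the highest of the 15 samples for 4 of the 10 genes (Pdgfrb, Fap, Acta2 and S100a4), as it was for 17.4% of all genes. It lay above every 2208L sample for 7 of the 10 (35.8% of all genes) and below none (21.7%). Against 2225L it lay above both samples for 8 (45.5%) and below both for none (35.0%). Against 2151R it lay above every sample for 6 and below every sample for 3, Pdgfa, Dcn and Lum (39.9% and 30.8% of all genes). Pdgfra was the sole gene of the 10 at which T11 lay inside the 2151R range. The models with few epithelial transcripts shared high Pdgfra, Pdgfa and S100a4 relative to 2208L, while Pdgfc and Acta2 were above every 2208L sample in T11 and lower in 2151R, with 1 Acta2 value of 2151R inside the 2208L range.

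Between 2225L and 2208L limma called 0 of the 10 genes, where 32.9% of all genes were called (15.6% higher and 17.3% lower). At an unadjusted p under 0.05 there was 1, Pdgfc, which also had the smallest exact two-sided permutation p that 2 against 8 samples allow, 0.0444. That exact p, also unadjusted, follows from the groups not overlapping and is no separate result. The groups did not overlap at 31.7% of all genes. Intervals were wide with 2 samples: that of S100a4 ran from -2.18 to 2.25 and that of Dcn from -1.86 to 2.12. Between 2225L and 2151R, 2 of the 10 were higher (Pdgfb and Pdgfc) and 4 lower (Pdgfra, Pdgfa, Dcn and S100a4), where 48.6% of all genes were called (22.8% higher and 25.8% lower). Groups did not overlap at 7 of the 10 and at 62.4% of all genes.

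Marker lists of other cell types were examined between 2151R and 2208L, where 26.1% of all genes were called higher and 22.7% lower. Of 13 resident fibroblast genes, 2 were higher in 2151R when set against 2208L, Pdpn, podoplanin (3.27), and Col3a1, a fibrillar collagen chain (1.47), and none was lower. Col1a1 (0.23), Col1a2 (0.039) and the fibroblast gene Dpt (2.05) were not called. The list's mean ran from 0.019 to 1.596 in 2151R and from -1.08 to 1.10 in 2208L, so the models overlapped. Of 10 pericyte genes none was higher and 2 were lower, Notch3 (-1.39) and Cspg4 (-1.03). Rgs5, a pericyte marker, differed by 0.074. Pericyte means ran from -1.03 to -0.023 in 2151R and from -1.03 to 0.66 in 2208L.

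Endothelial genes stood higher in 2151R than in 2208L, in a comparison where 26.1% of all genes were higher and 22.7% lower. Of 8 endothelial genes 7 were called higher, among them Pecam1 (1.08), Tek (1.52) and Erg (1.53), while Pdgfb was lower. Endothelial means ran from 0.22 to 0.77 in 2151R and from -1.46 to 0.028 in 2208L. Of 8 macrophage genes 6 were higher, such as Adgre1 (0.92) and Mrc1 (2.28), with means from 0.38 to 0.77 in 2151R and from -1.29 to 0.50 in 2208L. Of 6 adipocyte genes 2 were higher, and 3 of the 6 had a value repeated exactly between samples. Adipocyte means ran from 2.37 to 5.50 and from -3.19 to 3.01. Of 9 mesenchymal state genes 5 were higher, including Zeb1 (3.88), a repressor of epithelial genes, and Prrx1 (2.42), and Twist1 was lower (-0.79). Of 6 basal and myoepithelial genes, 4 were lower, among them Krt14 (-2.08), and Krt5, with a value repeated between samples, was higher (4.73). In 2225L 4 of the 6 were higher than in 2208L and none lower (15.6% and 17.3% of all genes). Acta2 was not called there (-0.43). T cell means ran from 0.17 to 1.01 in 2151R and from -2.39 to 0.85 in 2208L, with 2 of 6 genes called higher, Cd28 (2.78) and Cd4 (1.297). The neutrophil list had 3 of 5 genes lower, and none of 8 skeletal muscle genes was called. The part of these cells in the differences of the 10 genes was not tested.

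**Figure D4:**
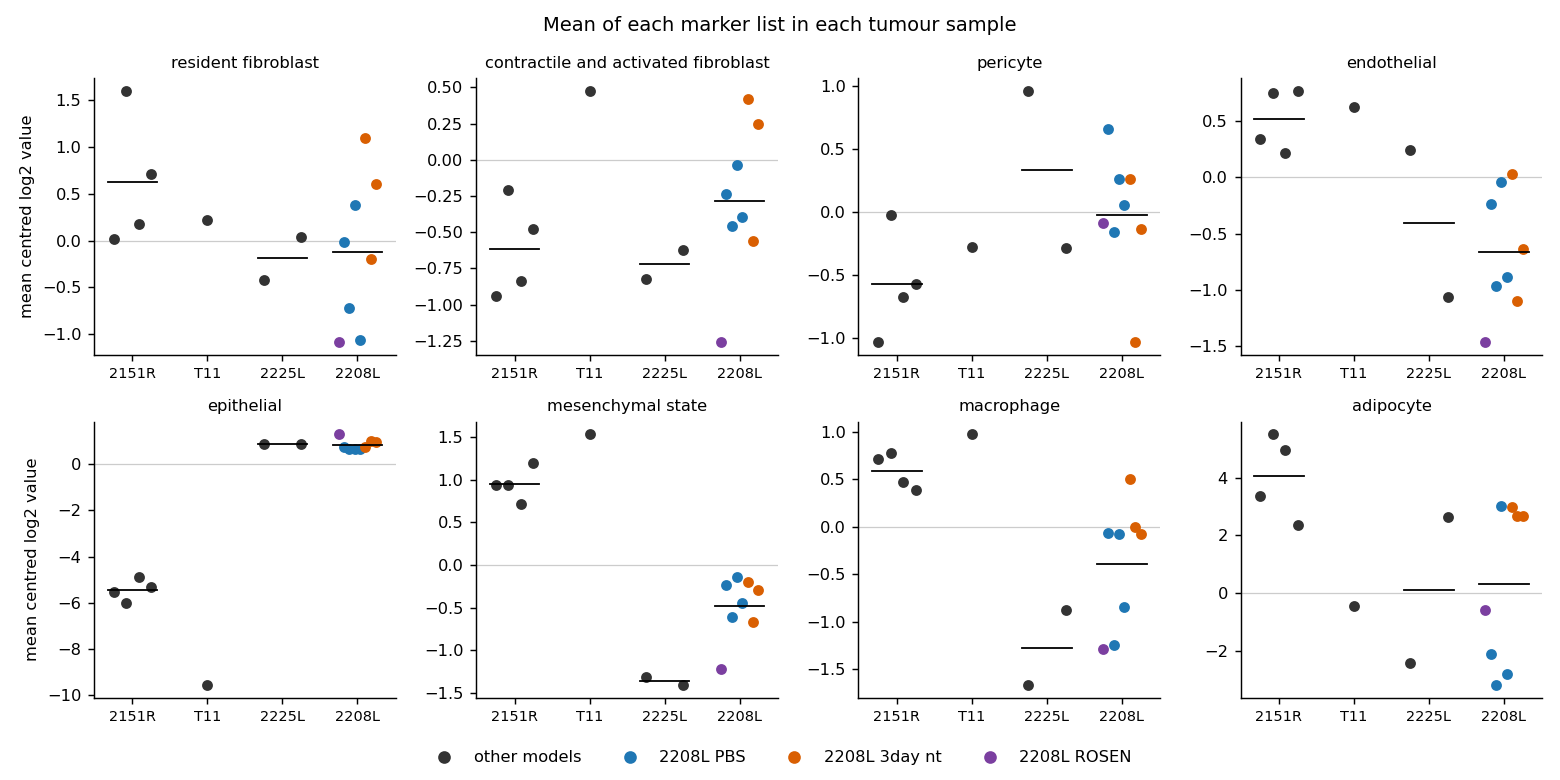
Mean centred log2 value of 8 marker lists (vertical axis) in each sample, by model; points are samples and lines are group means. Epithelial means separate 2151R and T11 from 2225L and 2208L, while resident fibroblast and pericyte means overlap between 2151R and 2208L.

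Direct chromosomal neighbours were set beside 5 of the genes, with 5 genes of the table on each side. Over all genes 26.1% were higher and 22.7% lower in 2151R against 2208L. S100a4 lies in a cluster of S100 genes. Of 8 measured genes of an S100 list, 5 were lower and 1 higher in 2151R against 2208L. Among them S100a14, an epithelial member, was lower at -5.03 and S100a16 at -1.86. The neighbours S100a7a, S100a8 and S100a9 are not in that list. S100a8 (-2.51) and S100a9 (-1.82) were lower too, and S100a7a (1.33) was not called. Of the 10 neighbours of S100a4, several of them S100 genes already counted, 7 were lower and 1, S100a3 (1.61), higher. Pdgfra lies between Chic2 (-0.077) and Kit, the stem cell factor receptor (-3.44), followed by Kdr, an endothelial receptor (1.40). Of its 10 neighbours 2 were higher and 4 lower. Around Pdgfb, which was lower, 7 of 10 neighbours were higher and 1 lower. Around Dcn 3 were higher and 1 lower. Around Acta2 5 were lower and none higher in this comparison. In 2225L against 2208L 9 of 10 were lower, where 17.3% of all genes were lower and Acta2 itself was not called.

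**Figure D5:**
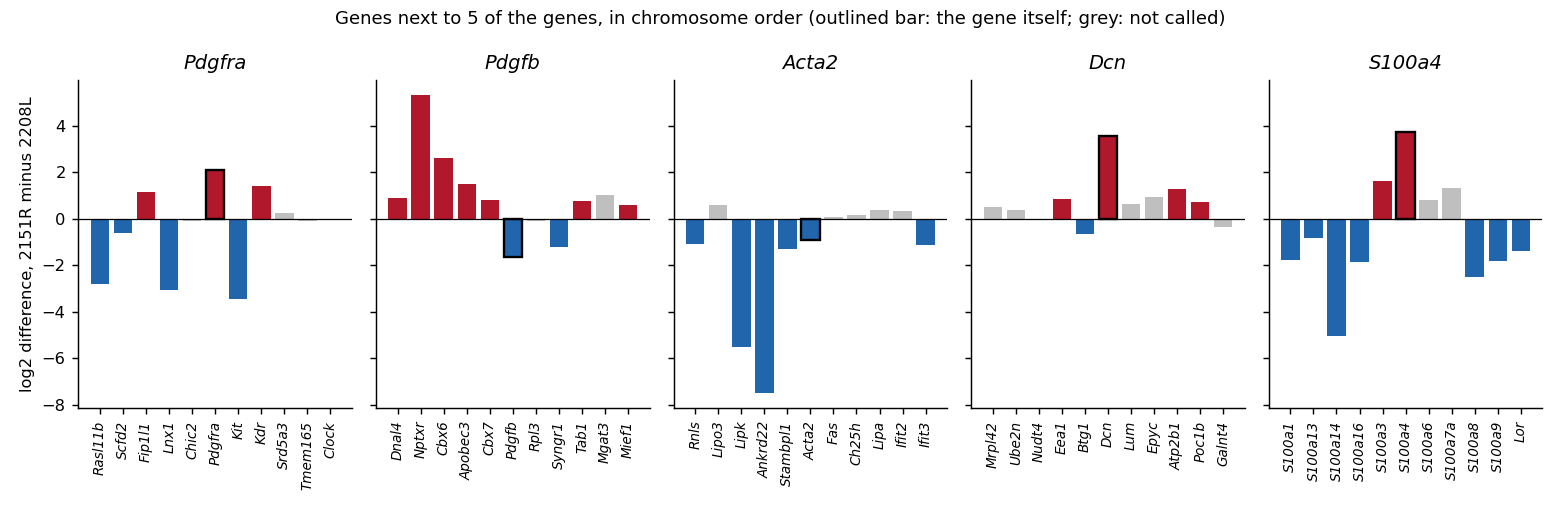
Log2 difference between 2151R and 2208L (vertical axis) for 5 genes (outlined bars) and the 5 genes of the table on each side of them in chromosome order; red and blue bars passed the test and grey bars did not. S100a4 is higher among neighbours of which 7 of 10 are lower, and Pdgfb is lower among neighbours of which 7 of 10 are higher. Over all genes 22.7% are lower and 26.1% higher.

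Genes were ranked by a distance, the root mean square difference over the 15 samples, each gene taken around its own mean. It is not scaled by how much a gene varies, so it favours genes that vary little. Fap was closest to Sparc (0.27 log2 units) and Emilin1, an elastic fibre protein (0.31). Lum was closest to C1qtnf2 (0.55) and Mfap4, a microfibril protein (0.55), and Pdgfra to Aebp1, a collagen-binding matrix protein (0.28), and Clmp (0.36). Dcn was closest to Hdgfl3 (0.62) and Pgm5 (0.64), and S100a4 to Stmn2 (1.06) and Mmp16, a membrane metalloproteinase (1.10). Pdgfrb was closest to Ccser2 (0.24) and Rhobtb2 (0.24), Pdgfa to Ampd2 (0.22) and Slc38a6 (0.27), and Pdgfb to Izumo4 (0.32) and Inpp4a (0.33). Pdgfc was closest to Xk (0.28) and Slc25a23 (0.37), and Acta2 to Fkbp14 (0.29) and Tmem150a (0.34). Among the 10 genes themselves the smallest distance was that of Pdgfrb and Fap (0.54), followed by Pdgfb and Acta2 (0.58). The root mean square of a gene around its own mean was 0.58 for Pdgfrb, 0.73 for Fap, 0.77 for Pdgfb and 0.71 for Acta2. Pdgfra and Dcn, at a distance of 0.98, varied more, by 1.26 and 1.89.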

How the data were processed

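RNA-seq libraries were made from poly(A) RNA, per the labels' protocols. STAR, Salmon and mm10 are named in the submitters' processing notes, while annotation, counting and normalization are not given in the sources used here. The deposited table holds log2 values of 17271 genes in 15 samples. The log2 scale and the centring on a median are known only from the name of the deposited table, and the offset before the logarithm is not stated. A value of exactly 0 occurs in 7710 genes, and 1124 have a median of 0 over these samples, so the reference was not the median of these samples alone. Depth is unknown, and precision rests on the spread between samples.

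Groups follow the titles, and replicates are numbered in accession order. Values were compared as deposited with limma 3.58.1 in R 4.3.3 (lmFit, eBayes), with all 15 samples and 1 mean per model, or with the 7 PBS and 3day nt samples of 2208L. All genes were tested, with a Benjamini-Hochberg adjusted p under 0.05 as the threshold. The fits were tested on simulated data. Exact permutation tests used scipy 1.17.1. None of the 10 genes has a value repeated between samples. Gene order came from RefSeq GRCm38.p6, with 16183 genes (93.7%) placed by symbol.

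The genes and the 17 marker lists were chosen with earlier results of these data known. Named genes were drawn from the 10 genes, Pdgfd, and the 2 of each list that differed most between 2208L and 2151R and have no repeated value. They were also drawn from the 2 at the smallest distance from each of the 10 and the defining markers Epcam, Cdh1, Vim, Pecam1, Adgre1, Rgs5 and Krt14. Not all of these are described above. Other list genes and neighbours are named to account for counts and were chosen after their values were seen. Alternatives were other scalings, variance models, filters, sample subsets and leaving out samples. Subsets of 2208L set against other models and the fit without replicates 6 and 8 were chosen after seeing the data.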

Additional observations from a re-analysis of the deposited data

How the results depend on the processing

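Over the 10 genes and all comparisons, leaving out single samples kept the side of the threshold in 337 results, lost the call in 9 and added one in 4. In the other alternatives 398 were kept, 13 lost, 8 added and 1 changed sign. A change of sign is counted where a value was called in either fit. Uncalled results thus count as kept even where the sign changed. Pdgfrb in 2151R against 2208L, for example, ran from -0.15 to 0.098 without single samples. The other alternatives include rescaled T11 differences, which carry no test. Those count as kept if they moved by less than the SD of the compared model. Between 2151R and 2208L the calls of the 10 genes held in all 24 alternatives, except that of Acta2. The filter at 1 log2 unit cannot lose a call of a larger difference. The exact permutation p is unadjusted and at its minimum wherever groups do not overlap. Without single samples, the number lower there ran from 2 to 3, and 2225L had from 0 to 1 gene lower than 2208L, 1 being Pdgfra without replicate 1 of 2208L. Against 2151R, 2225L had from 1 to 2 genes higher and from 3 to 4 lower. In 2208L PBS against 3day nt, 1 gene stayed higher and from 1 to 4 were lower, 4 without replicate 7 and 1 without replicate 8. Over all genes, those counts ran from 1362 to 3988 higher and from 1017 to 3111 lower, both lowest without replicate 8. They were 1723 and 1227 without replicate 6, and 1844 and 1780 were lower without replicates 2 and 3 in turn.

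With at least 1 log2 unit required, 2151R had 2585 genes higher and 2566 lower than 2208L. PBS then had 1206 higher and 1002 lower than 3day nt, with 0 of the 10 genes higher and 1 lower. With the muscle list as a covariate the counts were 86 higher and 38 lower, and without replicates 6 and 8 they were 76 and 22, with 0 of the 10 genes called in either direction. Both fits have fewer residual degrees of freedom, and in the second the lone 3day nt sample is assumed to vary like the PBS samples. Against the PBS samples alone, 1 gene was higher in 2225L (S100a4, 1.45) and 1 lower (Pdgfra). Against the 3day nt samples alone 1 was higher (Pdgfc, 1.29) and 2 lower (Pdgfb, -1.09, and S100a4, -1.82, where all 2208L samples gave 0.035). The cause of these changes was not tested. No paired analysis was possible because accession order, not the labels, numbers the replicates. Exact tests were not run where they cannot pass the threshold: 0.0571 is the smallest two-sided p for 4 against 3 samples and 0.133 for 2 against 4.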
